A study of Bos taurus with 3 samples.

Results

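Hemidesmosomes are the junctions that fix basal epithelial cells to the basement membrane beneath them. Inside the cell the plakin proteins PLEC (plectin) and DST (dystonin) tie keratin filaments to the junction, integrin alpha-6 beta-4 (ITGA6 and ITGB4) and collagen XVII (COL17A1) cross the membrane, and outside they bind laminin-332, of which LAMA3 and LAMB3 encode the alpha and beta chains. Collagen VII (COL7A1) forms the anchoring fibrils below the basement membrane, and ITGA3 pairs with integrin beta-1 as another laminin receptor of basal cells. In a stratified epithelium such as that of the rumen, the first stomach of cattle, only the basal layer touches the basement membrane, and KRTDAP (keratinocyte differentiation associated protein) marks cells that have left it.

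These 9 genes were taken by symbol from the 27270 gene rows of the matrices, where each symbol occurred in 1 row. Their identifiers were ENSBTAG00000002430 (COL17A1), ENSBTAG00000017266 (ITGA6), ENSBTAG00000018169 (ITGB4), ENSBTAG00000011922 (PLEC), ENSBTAG00000021237 (DST), ENSBTAG00000027181 (LAMA3), ENSBTAG00000016542 (LAMB3), ENSBTAG00000019498 (ITGA3) and ENSBTAG00000019081 (COL7A1). Rumen tissue of 3 newborn (NB) Holstein calves, 1 day old, was freed of its outer muscle, digested with EDTA, trypsin and a mix of collagenases and dispase, and sequenced as 1 droplet library per calf, with no treatment and no other age analysed here. Values are counts of unique molecular identifiers (UMIs, single captured molecules), summed over the cells of a class in a calf and given per 10000 UMIs of that class. The libraries held 82263092, 89803289 and 106145091 UMIs for calves 1, 2 and 3, and 4695, 9746 and 9601 barcodes passed the limits on genes, UMIs, mitochondrial share and doublets. Each calf is 1 library, so a difference between calves and a difference between libraries cannot be told apart, and any pair of libraries shared 10 to 26 of the kept barcodes.

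Clusters were named from markers as epithelial-like (4585, 8796 and 7846 cells in calves 1, 2 and 3), endothelial-like (79, 535 and 659), fibroblast-like with muscle-like cells (22, 335 and 396) and immune-like (9, 80 and 700), and are called epithelial, endothelial, fibroblast and immune cells here. Each class had its own markers: the epithelial list summed to 174 to 214 UMIs per 10000 in epithelial cells, the endothelial list to 54.2 to 75.0 in endothelial cells, the fibroblast list to 305 to 324 in fibroblasts and the immune list to 149 to 157 in immune cells. The 10 epithelial markers were also found outside the epithelium, at 5.46 to 31.5 in endothelial cells, 15.1 to 101 in fibroblasts and 9.13 to 32.4 in immune cells. The highest of these values, 101, was that of the 22 fibroblasts of calf 1. How far this moved the levels of the other classes was not tested; ratios to KRT15, an epithelial keratin, are given below.

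Epithelial cells with at least 2000 UMIs were thinned to 2000 and ordered by 2 readouts that used none of the 9 genes. Cells without a KRTDAP UMI were split in each calf into 3 equal parts by KRT5, KRT14 and KRT15, keratins of the basal layer, and are called basal-keratin-high, -middle and -low. Cells with 1 to 4 KRTDAP UMIs are called KRTDAP-intermediate (260, 374 and only 30 cells in calves 1, 2 and 3) and those with 5 or more KRTDAP-high. The basal-keratin-high class held 1365, 2681 and 2554 cells and the KRTDAP-high class 93, 158 and only 2 cells in calves 1, 2 and 3, so in calf 3 every KRTDAP-high value rests on 21411 UMIs, where a count of 0 allows up to 1.40 UMIs per 10000. Over all calves 35 of 20714 cells lay 1 UMI below the KRTDAP limit and 32 lay on it. The endothelial markers summed to at most 0.116 UMIs per 10000 in the KRTDAP-negative classes and at most 0.0536 in KRTDAP-high cells. The 10 immune markers summed to at most 0.0244 in KRTDAP-high cells, where 2 of them had UMIs and PTPRC, CD3E and FLT3 were among those at 0. The 7 fibroblast markers summed to 1.44 to 2.66 in basal-keratin-high, 2.41 to 6.96 in basal-keratin-low and 0 to 0.604 in KRTDAP-high cells, thus lower in the last class like the 9 genes, and their part in the differences below was not tested.

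All 9 genes were called lower in KRTDAP-high than in basal-keratin-high cells. The lower values of calf 3 carry little weight. The 1.40 UMIs per 10000 (3 UMIs) that a count of 0 allows there exceeded its basal-keratin-high level in 6 of the 9 genes (COL7A1, ITGA6, ITGA3, DST, LAMA3 and LAMB3). Its basal-keratin-high level of PLEC, 1.43, lay barely above that limit. ITGB4 had 1 UMI rather than 0 in its KRTDAP-high cells, which allows a higher level still. Of the 12134 genes tested, 20.7% were called lower and 15.8% higher (quasi-likelihood test of edgeR, calves as blocks, adjusted p under 0.05 by Benjamini-Hochberg), so a call in this comparison was common, and the median log2 difference was -3.57 over the 9 genes against -0.22 over all genes tested. Scaling the libraries by size factors of the RLE method moved the median of all genes to -0.42 and the split from 1919 higher and 2516 lower to 1542 and 3567. No direction among the 9 genes changed with it.

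COL17A1, the collagen that spans the basal cell membrane, stood at 22.4, 17.7 and 15.0 UMIs per 10000 in the basal-keratin-high cells of calves 1, 2 and 3 and at 0.389, 1.21 and 0 in their KRTDAP-high cells. Every basal value was thus far above the highest KRTDAP-high value, and calf 1 had the highest basal level. The difference was -4.51 ± 0.38 on the log2 scale (SE, adjusted p = 9.49e-08 in edgeR). Between these ends the level was 16.5, 15.6 and 12.3 in basal-keratin-middle, 11.4, 11.7 and 9.93 in basal-keratin-low and 8.97, 9.94 and 7.07 in KRTDAP-intermediate cells. It decreased at each of these steps in 3 of 3 calves.

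The shares of cells with a COL17A1 UMI followed the same order. After thinning, 95.5% (95% exact Clopper-Pearson interval 94.2 to 96.5), 94.3% (93.4 to 95.2) and 90.8% (89.6 to 91.9) of basal-keratin-high cells had one, and 5.38% (1.77 to 12.1) of the KRTDAP-high cells of calf 1, 18.4% (12.7 to 25.3) of those of calf 2 and 0 of the 2 cells of calf 3. These intervals cover counting error only. In cells classed as immune, which should lack the gene, 10 of 70 cells of calf 2 (14.3%) and 45 of 628 of calf 3 (7.17%) had a COL17A1 UMI, with intervals of 7.07 to 24.7 and 5.27 to 9.47. This class included cells of a mixed cluster led by PTI, COL17A1 and DAPL1, described below. Without it the class held 69 cells in place of 80 in calf 2 and 689 in place of 700 in calf 3. In that cluster 29 of 36 thinned cells had a COL17A1 UMI, so the immune shares are not a clean background. The shares without its cells were not computed. The interval of the KRTDAP-high share of calf 1 held the immune share of calf 3, so it could not be told from that share. That share is from another library, and only 7 immune cells of calf 1 were thinned, too few for a background of its own. The interval of the KRTDAP-high share of calf 2 overlapped the interval of calf 2's immune cells and lay above that of calf 3's. KRTDAP-high cells were deeper, with medians of 15040 and 12415 UMIs in calves 1 and 2, than basal-keratin-high cells (10324 and 7860) and than the thinned immune cells of calves 2 and 3 (5691.5 and 5383). Without thinning the mean shares were 99.6% in basal-keratin-high and 22.6% in KRTDAP-high cells.

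**Figure D1:**
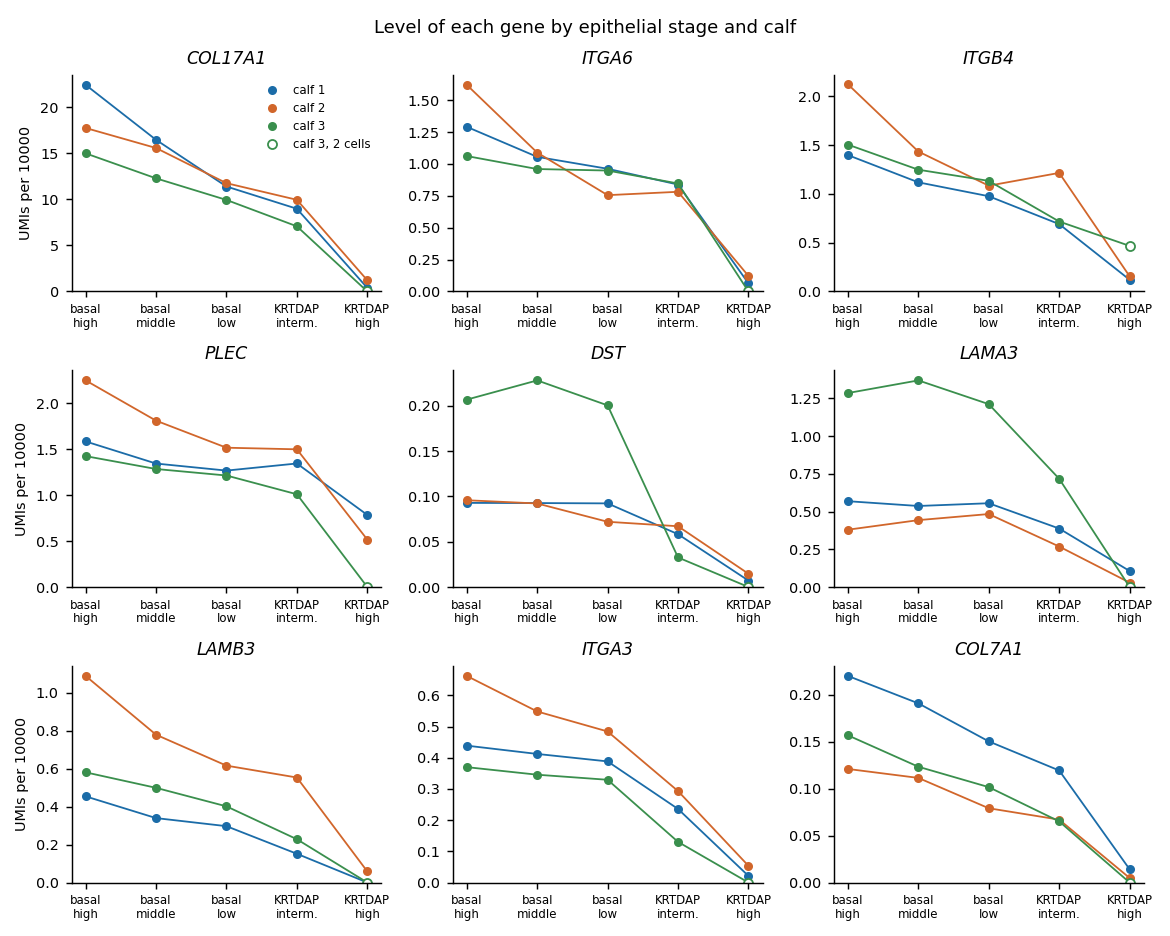
Level of each of the 9 genes in UMIs per 10000 (y axis, linear from 0, its own scale per gene) in the 5 epithelial classes from basal-keratin-high to KRTDAP-high (x axis), 1 line per calf, with an open point for the 2 KRTDAP-high cells of calf 3. COL17A1, COL7A1, ITGA3 and LAMB3 decrease at every step in all 3 calves, whereas LAMA3 does not do so in any calf and is highest in calf 3 among KRTDAP-negative cells. For the sparse COL7A1, ITGA3 and LAMB3 the last step of calf 3 ends at 0 UMIs in 2 cells and cannot show a fall.

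Both chains of the hemidesmosome integrin were called lower in KRTDAP-high cells, and each decreased at every step in 2 of 3 calves. In calf 3 the last step ends in 2 cells and carries little weight. ITGB4, the beta-4 chain with the long tail that binds plectin, was at 1.40, 2.12 and 1.50 UMIs per 10000 in basal-keratin-high cells and at 0.120, 0.156 and 0.467 in KRTDAP-high cells of calves 1, 2 and 3. The value of calf 3 is 1 UMI in 2 cells, and calf 2 was highest among the basal values. The log2 difference was -3.37 ± 0.23 (SE, edgeR adjusted p = 9.66e-09). ITGA6, the alpha-6 chain, was at 1.29, 1.62 and 1.06 in basal-keratin-high and at 0.0636, 0.122 and 0 in KRTDAP-high cells, a log2 difference of -3.60 ± 0.28 (edgeR adjusted p = 4.06e-08). Of the cells thinned to 2000 UMIs, 24.1%, 26.2% and 18.6% of basal-keratin-high cells had an ITGA6 UMI, against 2.15% and 1.27% of KRTDAP-high cells in calves 1 and 2 and 2.86% and 3.18% of immune cells in calves 2 and 3. The fibroblasts of calves 2 and 3 had shares of 2.42% and 0.844%. The KRTDAP-high intervals (0.262 to 7.55 and 0.154 to 4.498) held all 4 of these shares, so no difference from them was detectable at this depth. For calf 1 these shares are those of other libraries. Some clusters classed as immune, described below, held more ITGA6. The immune shares also include cells of the mixed cluster led by PTI, where 13 of 36 thinned cells had an ITGA6 UMI.

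Both cytoplasmic plakins were called lower in KRTDAP-high cells. PLEC, which links keratin and other filaments to junctions in many cell types, was at 1.59, 2.25 and 1.43 UMIs per 10000 in basal-keratin-high cells and at 0.785, 0.516 and 0 in KRTDAP-high cells. Its log2 difference of -1.34 ± 0.24 (SE, edgeR adjusted p = 2.71e-04) was the smallest of the 9 in size, and after thinning 16.1% and 10.1% of the KRTDAP-high cells of calves 1 and 2 still had a PLEC UMI against 27.9% and 36.8% of basal-keratin-high cells. DST was sparse, at 0.0928, 0.0957 and 0.207 in basal-keratin-high and 0.00707, 0.0146 and 0 in KRTDAP-high cells, a log2 difference of -2.80 ± 0.48 (edgeR adjusted p = 2.00e-04). The KRTDAP-high values of DST are 1 UMI in calf 1 and 3 UMIs in calf 2, so its fold change is set by very few molecules.

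Both laminin chains were called lower. LAMB3 was at 0.454, 1.09 and 0.580 UMIs per 10000 in basal-keratin-high cells and at 0, 0.0585 and 0 in KRTDAP-high cells, with a log2 difference of -4.37 ± 0.34 (SE, edgeR adjusted p = 5.45e-08). LAMA3 was at 0.568, 0.379 and 1.28 in basal-keratin-high and at 0.106, 0.0292 and 0 in KRTDAP-high cells, a log2 difference of -2.77 ± 0.29 (edgeR adjusted p = 1.33e-06). Calf 2 was thus the highest for LAMB3 and the lowest for LAMA3, and calf 3 the highest for LAMA3.

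ITGA3 was at 0.439, 0.662 and 0.370 UMIs per 10000 in basal-keratin-high and at 0.0212, 0.0536 and 0 in KRTDAP-high cells, a log2 difference of -3.57 ± 0.25 (SE, edgeR adjusted p = 1.40e-08). COL7A1, the anchoring fibril collagen, was at 0.220, 0.121 and 0.157 in basal-keratin-high cells and at 0.0141, 0.00487 and 0 in KRTDAP-high cells, which are 2 UMIs and 1 UMI in calves 1 and 2. Its log2 difference was -4.02 ± 0.36 (edgeR adjusted p = 2.17e-07). Calf 1 had the most COL7A1 and calf 2 the most ITGA3, and in calves 1 and 2 the KRTDAP-high values of both genes lay below every basal value.

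A cell of the basal-keratin-high class had UMIs of 2.18 ± 0.14 of the 9 genes per 2000 UMIs (SD, n = 3 calves). A KRTDAP-high cell had UMIs of 0.333 and 0.373 of them in calves 1 and 2, and of 0.5 in the 2 cells of calf 3. None of the 9 was found in 2.33% of basal-keratin-high cells and in 72.0% and 70.9% of the KRTDAP-high cells of calves 1 and 2. In the same classes ITGA6 and ITGB4 were found together in 102, 276 and 116 basal-keratin-high cells of calves 1, 2 and 3, against 89.9, 240 and 116 given by the product of their shares. The count was above the product in calves 1 and 2 (ratios of 1.13 and 1.15) and equal to it in calf 3 (1.00), and no test was made of it.

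The fall was tested at each step from the basal-keratin-high class. In basal-keratin-middle cells none of the 9 genes was called, and 0% of the 12134 genes were called lower; edgeR gave 0 calls in either direction there and 562 genes at an unadjusted p under 0.05. In basal-keratin-low cells 3 of the 9 were called lower, where 0.692% of all genes were: ITGB4 (-0.65 ± 0.14), LAMB3 (-0.68 ± 0.15) and COL7A1 (-0.62 ± 0.11). COL17A1 had a log2 difference of -0.76 ± 0.29 there that missed the threshold (edgeR adjusted p = 0.225), and LAMA3 one of 0.05 ± 0.14. In KRTDAP-intermediate cells 7 of the 9 were called lower against 2.65% of all genes, from LAMA3 (-0.61 ± 0.17) to LAMB3 (-1.20 ± 0.19). Calf 3 gave only 30 cells to this class. DST (-0.70 ± 0.23, edgeR adjusted p = 0.0799) and PLEC (-0.44 ± 0.20, edgeR adjusted p = 0.224) were not called. These steps share the basal-keratin-high cells, and the class limits were set by keratins whose levels followed that of COL17A1 closely.

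**Figure D2:**
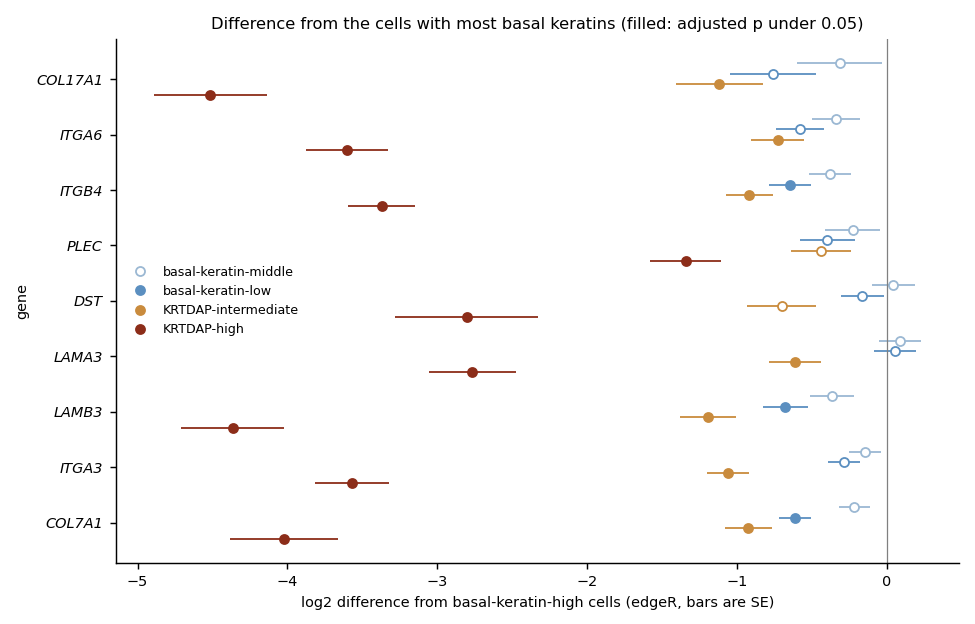
Log2 difference of each gene from basal-keratin-high cells (x axis) with its SE from edgeR, for the 4 other epithelial classes (colours), filled where the adjusted p was under 0.05. The KRTDAP-high points lie between -1.34 (PLEC) and -4.51 (COL17A1) and are all filled, and those of basal-keratin-middle cells are all open.

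Since calf 3 had 2 KRTDAP-high cells, the comparison was repeated with the cluster led by KRTDAP, SPINK5 and A2ML1 in place of the KRTDAP limit, a choice made after the data were seen. That cluster held 366, 617 and 350 cells, but KRTDAP itself was at 1.02 UMIs per 10000 in calf 3 against at least 22.5 in the other calves. All 9 genes were again called lower, with log2 differences from -0.42 (PLEC) to -2.38 (LAMB3) and -1.37 for COL17A1, and COL17A1 in this cluster was at 5.44, 6.15 and 7.59 UMIs per 10000 in calves 1, 2 and 3. Without calf 3 the differences by the KRTDAP limit were -4.42 for COL17A1 and -1.30 for PLEC, and without calf 2 that of PLEC was -0.81; LAMB3 had no UMI in the KRTDAP-high cells of calves 1 and 3, so it has no fold change without calf 2. When the cluster was set against the cluster with the most basal keratins, 161 cells with a median of 1714 UMIs, none of the 7 genes that could be tested was called and the log2 difference of COL17A1 was 0.12 (COL7A1 and DST were too sparse). Against the cluster with the second most basal keratins, 8 of the 9 were called, PLEC not (-0.43).

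Of 19 further basement membrane genes 14 were tested, of which 7 were called lower and none higher in KRTDAP-high cells (20.7% and 15.8% of all genes). The largest differences were those of COL18A1, a collagen of basement membranes (-4.43 ± 0.28, from 2.58 to 0.0651 UMIs per 10000), AGRN, the proteoglycan agrin (-3.28 ± 0.28, from 0.695 to 0.0429), and LAMB1, a laminin beta chain (-3.08 ± 0.30, from 0.379 to 0.0302). Their median was -2.02. Of 16 further matrix adhesion genes, all tested, 8 were called lower and 2 higher, with a median of -0.67. Among the 8 were ITGB1, the partner of ITGA3 (-2.34 ± 0.19, from 1.56 to 0.177), ITGA2, a collagen receptor chain (-2.65 ± 0.34, from 0.243 to 0.0161), and ITGB8, which had no UMI in KRTDAP-high cells. CD151, a tetraspanin that associates with laminin-binding integrins, had means of 1.42 UMIs per 10000 in basal-keratin-high and 2.06 in KRTDAP-high cells and was one of the 2 called higher; the other was VCL (vinculin), with means of 0.240 and 0.279. CD151 and VCL are named here after their values were seen. In KRTDAP-intermediate cells 4 of the 14 basement membrane genes and 1 of the 16 adhesion genes were called lower, against 2.65% of all genes. In basal-keratin-low cells 1 of each, COL4A5 and PARVA, was called lower, against 0.692% of all genes.

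Cycling cells were compared with other KRTDAP-negative cells to ask whether the junction genes differ with the UMIs of 4 genes of dividing cells. Cycling was taken as 2 or more UMIs over MKI67, TOP2A, CENPF and UBE2C after thinning, which held for 586, 187 and 393 cells of calves 1, 2 and 3. The other cells were not all resting. An epithelial cluster led by MCM5, MCM3 and UHRF1, genes active in DNA replication, held 2019 cells, more than the 1166 cycling cells. Its TOP2A was at 0.375 UMIs per 10000, and its mean ITGA6 and ITGB4 were at 1.46 and 1.66. Its part in the differences was not tested. Of the 9 genes 4 were called lower in cycling cells, where 14.7% of the 12057 genes tested were called lower. COL17A1 was at 13.2, 13.1 and 8.87 UMIs per 10000 in cycling cells and at 17.4, 15.4 and 12.6 in the others, lower in each calf although the groups overlapped across calves, with a log2 difference of -0.56 ± 0.08 (SE, edgeR adjusted p = 0.00189). LAMB3 was at 0.194, 0.663 and 0.250 against 0.397, 0.856 and 0.509, a log2 difference of -0.99 ± 0.14 (edgeR adjusted p = 0.00167). ITGA3 differed by -0.58 ± 0.12 and LAMA3 by -0.75 ± 0.16, both lower in 3 of 3 calves.

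The integrin pair and the plakins did not pass the test in cycling cells. ITGA6 was at 1.15, 1.71 and 1.06 in cycling and at 1.09, 1.18 and 0.983 in other cells, higher in 3 of 3 calves in level, with a log2 difference of 0.06 ± 0.11. The differences of ITGB4, PLEC and DST were -0.07 ± 0.14, -0.09 ± 0.11 and 0.05 ± 0.22. COL7A1, at -0.36 ± 0.19, was not called with all calves and was called without calf 2 (-0.58), and LAMA3 lost its call without calf 3 (-0.50, edgeR adjusted p = 0.0660). Without the calf as a block none of the 9 was called, COL17A1 having a log2 difference of -0.55 with an edgeR adjusted p of 0.280. Cycling cells were also deeper, with medians of 13789.5, 11036 and 12574 UMIs against 10006.5, 6716.5 and 7913, and the part of depth in these differences was not tested. Of the other basement membrane genes 8 of 16 tested were called lower in cycling cells (14.7% of all genes), led by FRAS1 (-1.68 ± 0.36), LAMA5 (-1.37 ± 0.32) and COL18A1 (-1.02 ± 0.09). Of the adhesion genes 5 of 16 were called lower, led by ITGB8 (-1.21 ± 0.39), ITGB5 (-0.57 ± 0.10) and ITGA2 (-0.54 ± 0.13). None of either list was called higher, where 1714 of the 12057 genes tested were.

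Among the epithelial clusters, which were built without the 9 genes, the cluster led by IL1R2, CAMK2N1 and LY6D (3042 cells) held COL17A1 at 25.4, 21.1 and 17.3 UMIs per 10000 in calves 1, 2 and 3. The cluster led by CXCL3, GRO1 and CCN2 (3779 cells) held it at 11.8, 10.4 and 10.3, below the other cluster in each calf. LAMA3 went the other way in calves 1, 2 and 3, at 0.710, 0.499 and 1.75 in the CXCL3 cluster against 0.612, 0.471 and 1.48 in the IL1R2 cluster. A cluster led by mitochondrial genes (1147 cells, median mitochondrial share 19.04% and median depth 3377 UMIs) had the highest mean of all 9 genes among epithelial clusters. Its means included COL17A1 at 22.1, ITGB4 at 2.14, LAMA3 at 1.11 and LAMB3 at 0.742. It was the highest in 3 of 3 calves for COL7A1 and PLEC but in only 1 for ITGA3 and LAMB3. The part of its mitochondrial share and depth in these values was not tested. In the mitotic cluster led by CENPF, TOP2A and MKI67 LAMB3 was at 0.181, 0.519 and 0.227.

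The calves differed in some genes by far more than the counting error. LAMA3 was at 0.533 (95% exact Poisson interval 0.513 to 0.553), 0.411 (0.396 to 0.426) and 1.29 (1.26 to 1.32) UMIs per 10000 over all epithelial cells of calves 1, 2 and 3, and DST at 0.0898, 0.0845 and 0.212. Both were highest in calf 3. LAMB3 was instead highest in calf 2, at 0.338 (0.322 to 0.354), 0.811 (0.790 to 0.833) and 0.491 (0.474 to 0.507). COL7A1 was highest in calf 1, at 0.179 (0.167 to 0.191), 0.101 (0.0934 to 0.109) and 0.127 (0.118 to 0.135). ITGA6 was the most alike across calves, at 1.05, 1.14 and 0.989.

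Between cell classes, COL17A1, LAMA3 and LAMB3 were highest in the epithelium, while ITGA6 and PLEC were highest in endothelial cells. COL17A1 was at 15.8, 14.6 and 12.3 UMIs per 10000 in epithelial, 2.60, 0.767 and 0.300 in endothelial, 8.61, 1.89 and 1.28 in fibroblast and 0.406, 2.09 and 0.761 in immune cells of calves 1, 2 and 3. The epithelial values lay above all others, and the value of 8.61 comes from the 22 fibroblasts of calf 1 that also held the most epithelial markers. It was called higher in epithelial than in endothelial cells (log2 difference 4.44 ± 0.52), fibroblasts (2.88 ± 0.49) and immune cells (3.69 ± 0.50), with edgeR adjusted p of 1.01e-06, 1.28e-04 and 9.37e-06. A cluster of 40 cells outside the epithelium was led by PTI, COL17A1 and DAPL1 and one of 14 epithelial cells by COL3A1, COL1A2 and COL1A1, genes of another class in each case. Cells of the PTI cluster also lay in the endothelial class, which held 73 in place of 79 cells in calf 1 without them. The endothelial value of 2.60 in calf 1 is therefore not that of endothelial clusters alone. Without these mixed clusters, a choice made after the data were seen, the differences of COL17A1 were 5.69, 3.32 and 4.86, and no call among the 9 genes changed. Without doublet removal they were 2.68, 1.55 and 2.88 on the same scale.

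**Figure D3:**
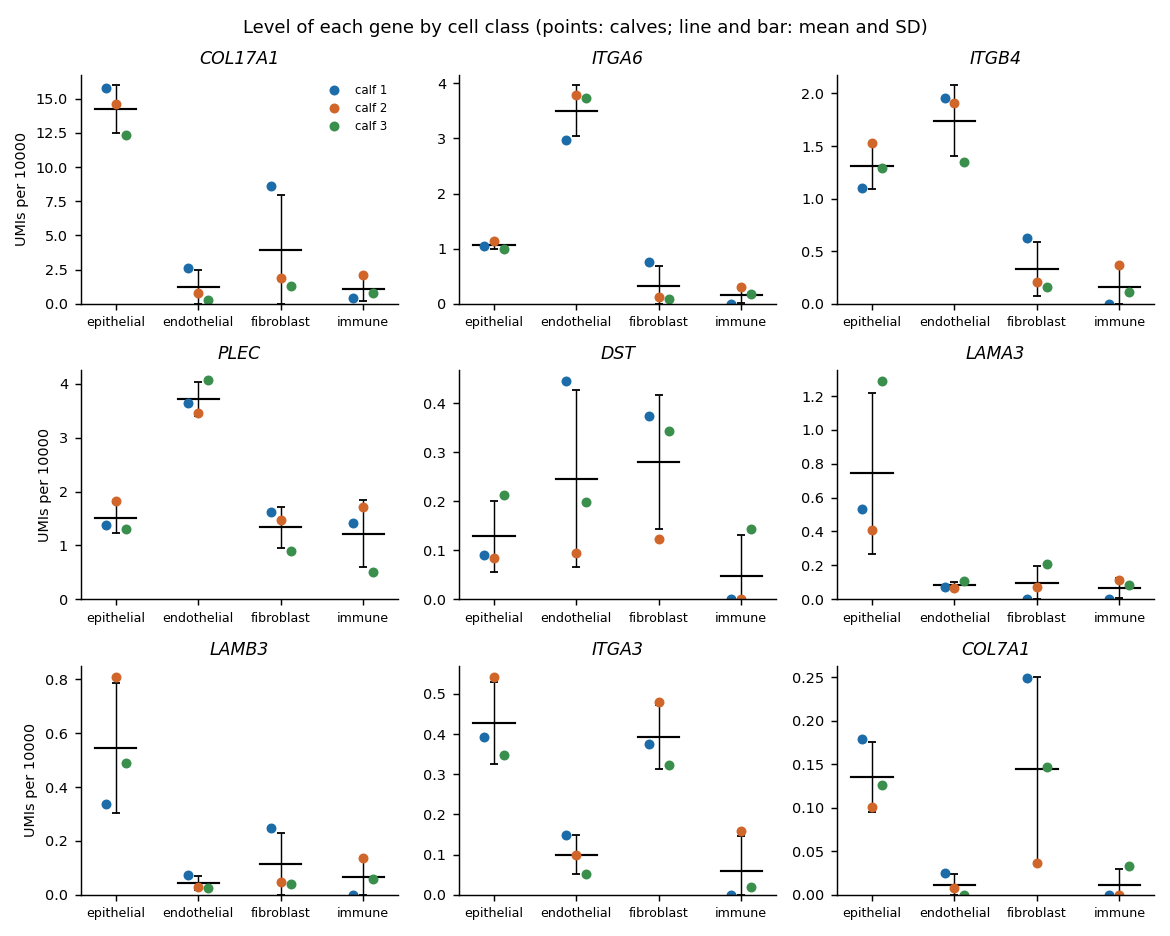
Level of each gene in UMIs per 10000 (y axis, linear from 0, its own scale per gene) in the 4 cell classes (x axis); points are calves, the line is their mean and the bar 1 SD, cut at 0. ITGA6 and PLEC are higher in the endothelial cells of every calf than in any epithelial value, and COL17A1 reaches 8.61 in the 22 fibroblasts of calf 1.

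The COL17A1 that was counted outside the epithelium had a ratio to KRT15, a keratin of basal epithelial cells, near that of epithelial cells. The endothelial class of calf 1 included cells of the mixed cluster led by PTI, which has KRT15 among its top genes. Without that cluster it held 73 in place of 79 cells. In the endothelial cluster led by PLVAP COL17A1 was at only 0.262 to 0.421 UMIs per 10000 in the 3 calves. The ratios without the mixed cluster were not computed. There were 14.5, 11.95 and 12.2 COL17A1 UMIs per 100 KRT15 UMIs in epithelial cells of calves 1, 2 and 3, 12.8, 10.4 and 9.59 in endothelial cells, 16.5, 11.8 and 14.9 in fibroblasts and 11.1, 9.83 and 11.5 in immune cells. LAMB3 was at 0.311, 0.664 and 0.487 per 100 KRT15 UMIs in epithelial and at 0.366, 0.390 and 0.838 in endothelial cells, lower there in calf 2 and higher in calf 3, on only 3, 7 and 9 endothelial LAMB3 UMIs. The ratio of ITGA6 was not alike: it was at 0.970, 0.937 and 0.982 per 100 KRT15 UMIs in epithelial cells and at 14.7, 51.6 and 120 in endothelial cells. PLEC was at 1.27, 1.50 and 1.30 in epithelial and 17.9, 47.1 and 131 in endothelial cells.

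**Figure D4:**
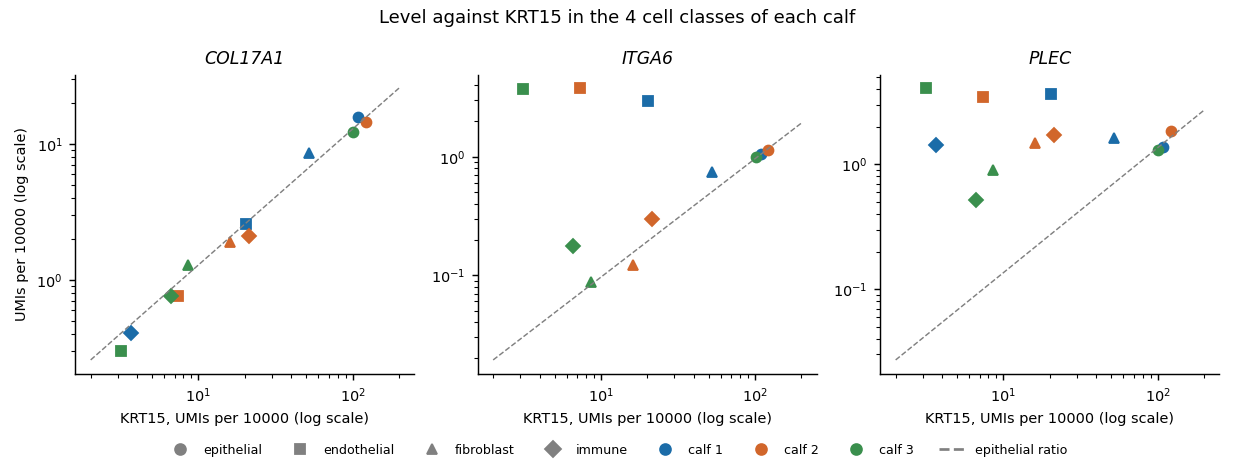
Level of COL17A1, ITGA6 and PLEC (y axis, UMIs per 10000, log scale) against that of KRT15 (x axis, log scale) in each cell class (shapes) and calf (colours); the dashed line is the mean epithelial ratio, and the ITGA6 value of 0 in the immune cells of calf 1 is not drawn. COL17A1 lies along the line in all 4 classes, and the endothelial squares of ITGA6 and PLEC lie far above it.

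Against endothelial cells, 5 of the 9 genes were called higher in the epithelium and 2 lower, where 22.1% of the 10253 genes tested were called higher and 24.8% lower. The higher genes were COL17A1, COL7A1 (4.93 ± 0.66), LAMB3 (4.56 ± 0.39), LAMA3 (3.53 ± 0.31) and ITGA3 (2.76 ± 0.32). ITGA6 was at 1.05, 1.14 and 0.989 UMIs per 10000 in epithelial and at 2.97, 3.79 and 3.74 in endothelial cells of calves 1, 2 and 3, every endothelial value being above every epithelial one, with a log2 difference of -1.40 ± 0.28 (SE, edgeR adjusted p = 3.75e-04). PLEC was at 1.38, 1.83 and 1.31 against 3.64, 3.47 and 4.08, again without overlap, with a log2 difference of -1.02 ± 0.26 (edgeR adjusted p = 0.00322; 0.0581 without the calf as a block). These values are relative to all genes, and endothelial cells were shallower, with medians of 4166, 3658 and 4474 UMIs.

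ITGB4, with which ITGA6 pairs in the hemidesmosome, was at 1.10, 1.53 and 1.29 UMIs per 10000 in epithelial and at 1.95, 1.91 and 1.35 in endothelial cells. Each calf's endothelial value was the higher one, but the scaled log2 difference of -0.04 ± 0.25 was not called and turned to 0.20 without calf 1. DST, at 0.445, 0.0944 and 0.198 in endothelial and 0.0898, 0.0845 and 0.212 in epithelial cells, was not called either (-0.25 ± 0.40). After thinning, an ITGA6 UMI was found in 49.3%, 50.0% and 50.8% of the endothelial cells of calves 1, 2 and 3 and an ITGB4 UMI in 22.5%, 32.8% and 23.6%. In fibroblasts of calves 2 and 3 the ITGA6 share was 2.42% and 0.844%, and in immune cells of those calves 2.86% and 3.18%, so the endothelial share was well above that background. The marker lists of the other classes summed to at most 1.02 (fibroblast) and 9.72 (immune) UMIs per 10000 in endothelial cells.

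The 3 endothelial clusters all held ITGA6 at like levels in the calves with at least 20 cells of the cluster, from 2.84 to 4.05 UMIs per 10000 in the PLVAP, TM4SF18 and FAM167B cluster, 3.59 and 3.74 in the CYP1A1, EGFL8 and SLC9A3R2 cluster and 3.46 and 3.59 in the ACKR1, FGL1 and NTS cluster. ITGB4 was at 2.21 and 2.45 in the ACKR1 cluster and at 1.47 and 1.65 in the CYP1A1 cluster of calves 2 and 3. PLEC had the reverse order of these clusters, at 3.70 and 3.50 against 4.16 and 5.32. Both genes thus held the same order in the 2 calves that could be compared.

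Against fibroblasts 5 of the 9 genes were called higher in the epithelium (17.5% of the genes tested) and none lower (19.1%). Beside COL17A1 these were LAMB3 (3.83 ± 0.46), ITGA6 (3.28 ± 0.42), ITGB4 (3.02 ± 0.36) and LAMA3 (2.96 ± 0.35). ITGA3, COL7A1, PLEC and DST were not called, and ITGA3 was at 0.392, 0.543 and 0.348 UMIs per 10000 in epithelial and at 0.374, 0.479 and 0.324 in fibroblast cells of calves 1, 2 and 3, with overlapping values and a log2 difference of 0.50 ± 0.31. When the clusters led by muscle and pericyte genes were left out, ITGA3 was called higher in the epithelium (3.19, edgeR adjusted p = 8.26e-05) and the sign of COL7A1 turned (-0.15, not called).

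Inside the fibroblast class ITGA3 differed between 2 clusters in calves 2 and 3, and COL7A1 differed clearly, the other way, in calf 3 only. ITGA3 was at 1.24 and 0.974 UMIs per 10000 in the cluster led by CNN1, ACTG2 and MYH11, genes of smooth muscle (65 and 64 cells of calves 2 and 3), and at 0.0976 and 0.0337 in the cluster led by CXCL14, APOD and PENK (159 and 146 cells). A UMI of ITGA3 was found in 21 of 100 thinned cells of the CNN1 cluster and in 1 of 115 of the CXCL14 cluster. COL7A1 was at 0.0651 and 0.505 in the CXCL14 cluster, the second value being above that of any epithelial cluster of calf 3, and at 0.0426 and 0 in the CNN1 cluster. In the CXCL14 cluster the value of calf 2 is 2 UMIs and that of calf 3 15 UMIs, and 5 of its 115 thinned cells had a COL7A1 UMI. In calf 2 the values of 0.0651 and 0.0426 rest on too few UMIs to tell the clusters apart.

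**Figure D5:**
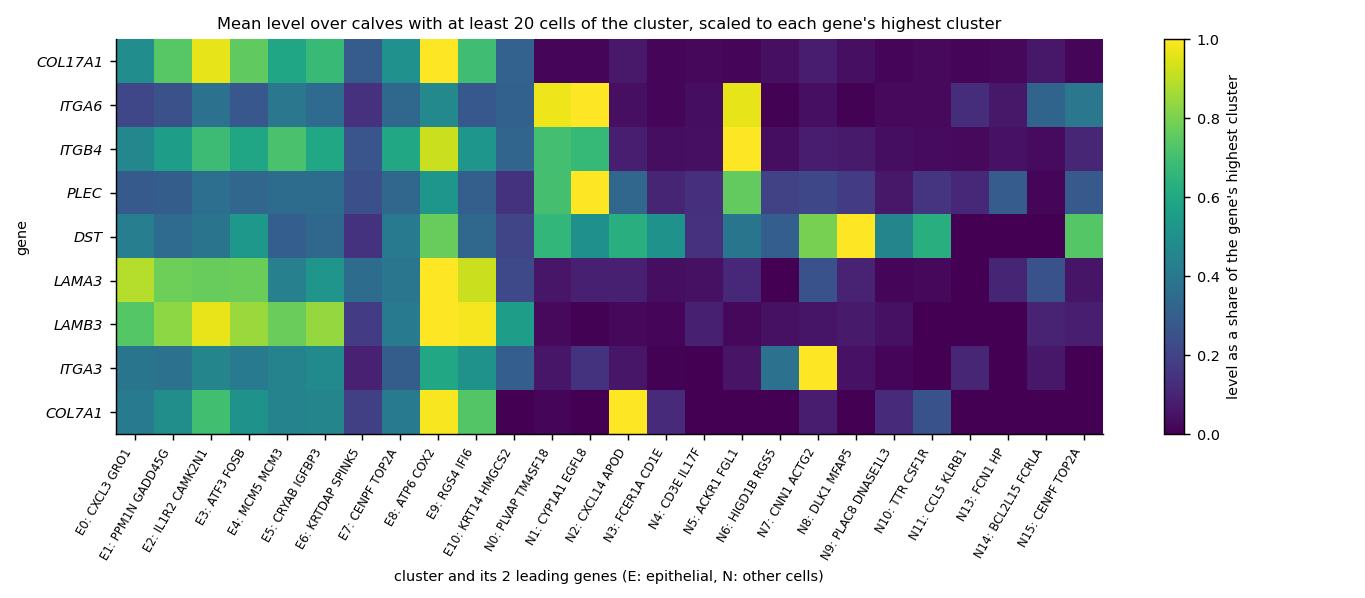
Mean level of each gene (rows) in each cluster (columns, named by 2 leading genes; E epithelial, N other cells) over the calves with at least 20 cells of that cluster, as a share of the gene's highest cluster (colour, 0 to 1). ITGA6 and PLEC peak in the clusters N0, N1 and N5 of endothelial cells, ITGA3 in the CNN1 cluster N7 and COL7A1 in the CXCL14 cluster N2 and the mitochondrial cluster E8. The COL7A1 mean of N2 is that of 0.0651 and 0.505 in its calves.

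Against immune cells 8 of the 9 genes were called higher in the epithelium (24.1% of the genes tested) and none lower (23% of them), the exception being DST (0.77 ± 0.51). The differences ran from PLEC (0.86 ± 0.30) to COL17A1 (3.69 ± 0.50). PLEC was at 1.42, 1.71 and 0.514 UMIs per 10000 in immune cells of calves 1, 2 and 3, overlapping its epithelial values of 1.38, 1.83 and 1.31, and it lost its call without calf 3 (0.36), without the block (0.73) and in DESeq2 (adjusted p = 0.0542). ITGA3 fell to 2.20 without calf 3, and COL7A1, which had immune UMIs in calf 3 alone, has no fold change without it. A small cluster of calf 3 led by BCL2L15, FCRLA and LTB (31 cells, with SPIB among its top genes) had ITGA6 at 1.18, above the 0.176 of all immune cells of that calf, and 4 of its 28 thinned cells had an ITGA6 UMI. A cluster of 30 cells classed as immune and led by CENPF, TOP2A and UBE2C had ITGA6 at 1.33 and 1.46 in calves 2 and 3 (7 and 23 cells), with an ITGA6 UMI in 4 of 30 thinned cells. It also held markers of other classes, with PECAM1 at 2.34, COL3A1 at 4.17 and ACTA2 at 10.8 UMIs per 10000 beside PTPRC at 1.93. Its ITGA6 therefore cannot be assigned to immune cells.

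Of the other basement membrane genes, 9 of 14 tested were called lower in the epithelium than in endothelial cells (24.8% of all genes) and 3 higher (22.1%), led by NID1, a nidogen (-9.03 ± 0.42), COL15A1 (-8.91 ± 0.40) and COL4A1, a chain of the type IV collagen network (-7.94 ± 0.30, 0.0221 against 6.85 UMIs per 10000). Against fibroblasts 10 of 14 were lower (19.1% of all genes) and none higher (17.5%), led by NID1 (-9.57 ± 0.44), NID2 (-9.00 ± 0.38) and COL4A1 (-7.95 ± 0.31). Against immune cells 7 of 14 were higher (24.1% of all genes) and 4 lower (23%), among the higher COL4A6 (4.73 ± 0.64), COL4A5 (3.73 ± 0.46) and HSPG2 (perlecan), which had no UMI in immune cells. Of the adhesion genes 14 were tested; 7 were lower and 2 higher than in endothelial cells, 9 lower and 2 higher than in fibroblasts, and 3 lower and 6 higher than in immune cells, against the same shares of all genes, to which the smaller of these counts are close. FERMT1, the kindlin of epithelial cells, was higher in the epithelium in all 3 (3.28 ± 0.30, 3.05 ± 0.35 and 3.84 ± 0.38), as was ITGA2 against fibroblasts (3.34 ± 0.50) and immune cells (4.38 ± 0.53) and PARVA against immune cells (3.43 ± 0.39). CD151 (-2.34 ± 0.25) and TSPAN15 (-2.87 ± 0.30) were lower than in endothelial cells, and TSPAN15 (-2.41 ± 0.37) also lower than in fibroblasts.

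The genes whose levels followed those of 3 members most closely were found by Pearson's r of log2(UMIs per 10000 + 0.1) over 27 sums (9 classes in 3 calves), among 3415 genes. These sums share calves, libraries and the limits of the classes, so r is a description. The cycling sums repeat cells of the KRTDAP-negative classes. Each sum counts alike, also those of the 2 KRTDAP-high cells of calf 3 and the 9 immune cells of calf 1. For COL17A1 they were KRT15 (r = 0.99), KRT5 (0.98), IGFBP2 (0.97), CA3 (0.93) and GATM (0.92); KRT15 and KRT5 helped to set the classes. ITGB4 was most like INKA1 (0.93), JAG2 (0.90), its partner ITGA6 (0.90), BCAM (0.88) and CDH13 (0.87), and LAMB3 most like DLK2 (0.96), SFRP1 (0.93), GATM (0.92), KRT15 (0.91) and KRT5 (0.90). Among pairs of the 9 genes r was highest for ITGA6 with ITGB4 and for COL17A1 with LAMB3 (0.90 each) and lowest for COL7A1 with PLEC (0.18).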

How the data were processed

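Per the labels, rumen cells of 3 newborn calves were captured with 3′ v3 droplet chemistry and processed with Cell Ranger 3.1.0. The deposited matrices hold UMI counts per gene and barcode, made by the authors and not normalised. Barcodes were kept with 500 to 4000 genes, no more than 50000 UMIs and a mitochondrial share (13 genes) of up to 40%, and the barcodes closest to simulated doublets were removed (0.8% per 1000 barcodes). Clusters came from 2000 variable genes without the 9 genes and the listed genes (scanpy 1.11.5, Leiden, calves aligned by a Harmony-type step) and were named from markers. Counts were summed per class and calf and tested with edgeR 4.0.16 (quasi-likelihood, TMM, low counts filtered, Benjamini-Hochberg 0.05). Calf was a block because classes of the same animal were compared, and n is 3 calves. DESeq2 1.42.0 was an alternative. Named genes were the 9, up to 3 of the largest called differences per list, the 5 genes most like COL17A1, ITGB4 and LAMB3, and the 3 leading genes of a cluster. The 9 genes and the lists were chosen with earlier results of these data known. The test was checked on simulated counts. No sequences or coordinates are given. Levels are shares of all UMIs, so depth per class sets their precision, and intervals cover counting error only.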

Additional observations from a re-analysis of the deposited data

How the results depend on the processing

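Between KRTDAP-high and basal-keratin-high cells 4435 genes were called, and 530 with clusters in place of the class limits, 2131 with the second basal cluster, 2398 with no replicate block and 2754 with only the compared classes fitted. Leaving out 1 calf gave 3029 to 3791 calls there, 2808 to 4923 against endothelial cells, 2013 to 4001 against fibroblasts, 2202 to 5220 against immune cells and 1768 to 3037 for cycling cells. The lowest of each of the last 4 ranges was without calf 3. For cycling cells 3484 genes were called, and 357 without the replicate block; without it COL17A1 (-0.55), ITGA3 (-0.64), LAMA3 (-0.82) and LAMB3 (-0.90) lost their calls. With clusters in place of the class limits the log2 differences of COL17A1 (0.12), PLEC (0.99) and LAMA3 (0.96) reversed, none of them called. Differences that were not called also changed sign. Against endothelial cells ITGB4 was at 0.10 with no filter on low counts and ran from -0.19 to 0.20, and DST from -0.77 to 0.38, when 1 calf was left out. Against fibroblasts COL7A1 was at -0.15 without the muscle clusters. In cycling cells ITGA6 ran from -0.057 to 0.14, ITGB4 from -0.28 to 0.043, DST from -0.24 to 0.34 and PLEC from -0.16 to 0.016 with 1 calf left out, ITGB4 was at 0.0081 without the replicate block, and DST was at -0.022 with at most 20% mitochondrial UMIs and -0.092 with a cycling limit of 1 UMI. The cause was not tested. Of 583 log2 differences of the 9 genes under alternatives, 552 kept their direction and side of the threshold, 14 lost a call, 3 gained one and 14 changed sign; of 324 shares 99 moved by more than 1 SD. Without doublet removal the differences from other classes shrank, COL17A1 against endothelial cells to 2.68, and kept their calls. Depth limits the sparse genes most: in KRTDAP-high cells COL7A1 had 2, 1 and 0 UMIs and DST 1, 3 and 0.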

Other observations

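Barcodes outside the limits on gene number also held COL17A1. Those with over 4000 genes (797, 187 and 637 barcodes in calves 1, 2 and 3) had 12.4, 14.5 and 8.86 COL17A1 UMIs per 10000, and those with under 500 genes (1797, 1119 and 476 barcodes) had 2.57, 4.86 and 4.56.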
